A study of Homo sapiens with 24 samples.

Results

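PNLDC1, RFPL2, KLHL35 and SESN3 are 4 of the 57500 genes counted by RNA-Seq in FaDu and SAS spheroids, and they were picked on measured values, namely few or no reads in SAS control spheroids and a rise after hyperthermia (HT). The values of SAS spheroids that this choice used, with heat against no heat in SAS and the contrasts of both lines in controls and after HT, are therefore given as a description with no test. Tests are confined to heat and irradiation (RT) in FaDu spheroids. Both lines after RT alone are only described, since RT altered few genes in SAS spheroids and the choice used their controls. RT without heat in SAS spheroids is set against controls that the choice used, so that it is only described. Of the 4 genes 0 had enough reads for a test there. RT added to HT in SAS spheroids is described without a test of the 4 genes, since the choice used heated SAS libraries. FaDu and SAS are established human lines of head and neck squamous cell carcinoma, grown as multicellular spheroids. For each line, control spheroids received neither treatment, RT was a single dose of 7 Gy in FaDu and 10 Gy in SAS, HT was 42.5 °C for 60 min, and HT + RT was heat followed by that dose. RNA was isolated 0.5 h after treatment from 3 independent experiments per group, which gave 24 libraries with 15203484 to 29452514 counted reads (median 18378943). In each FaDu group, replicate 1 differed more from replicates 2 and 3 than these did from each other, with a chi-square per gene of 13.6 to 19.5 against 3.29 to 4.69, so that FaDu comparisons of heated with unheated spheroids are also given without it.

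Heat unfolds proteins and thereby frees the transcription factor HSF1, which binds runs of alternating GAA and TTC units, called heat shock elements, and drives the transcription of chaperone genes. The 4 genes do not code for chaperones. PNLDC1 is a nuclease that trims the ends of piRNA precursors in germ cells, RFPL2 and KLHL35 belong to the ret finger protein-like and Kelch-like families, whose domains are known from ubiquitin ligases, and SESN3 is a sestrin, a stress-inducible inhibitor of the growth kinase complex mTORC1.

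Near-silence held in SAS control spheroids, where PNLDC1, RFPL2 and KLHL35 had 0 counts in each of the 3 libraries and SESN3 had 0, 6 and 2 counts. It did not hold for all 4 genes in FaDu control spheroids, in which KLHL35 had 64, 86 and 110 counts and SESN3 had 175, 223 and 339. FaDu control spheroids held few reads of PNLDC1 (2, 1 and 7) and RFPL2 (8, 5 and 3), though not 0 in any library. A group without a count has a level of up to 0.0567 CPM (counts scaled to library size) in SAS control spheroids, the level of 3 counts over its 3 libraries, and such floors and the intervals given below cover counting error only. After HT every SAS library lay above every SAS control library for each of the 4 genes, which the choice required, but for KLHL35 this rise amounted to 9, 4 and 6 reads. RNA of whole spheroids does not show whether more cells held a transcript or each cell held more of it, and these cannot be told apart here. Of all genes, 6.03% of 15000 tested were altered by HT and 6.36% of 14938 by HT + RT in SAS spheroids, where altered means that edgeR gave an adjusted p under 0.05 together with a log2 fold change above 1 or below -1. Nothing is read from these shares for the 4 genes, since this contrast chose them.

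**Figure D1:**
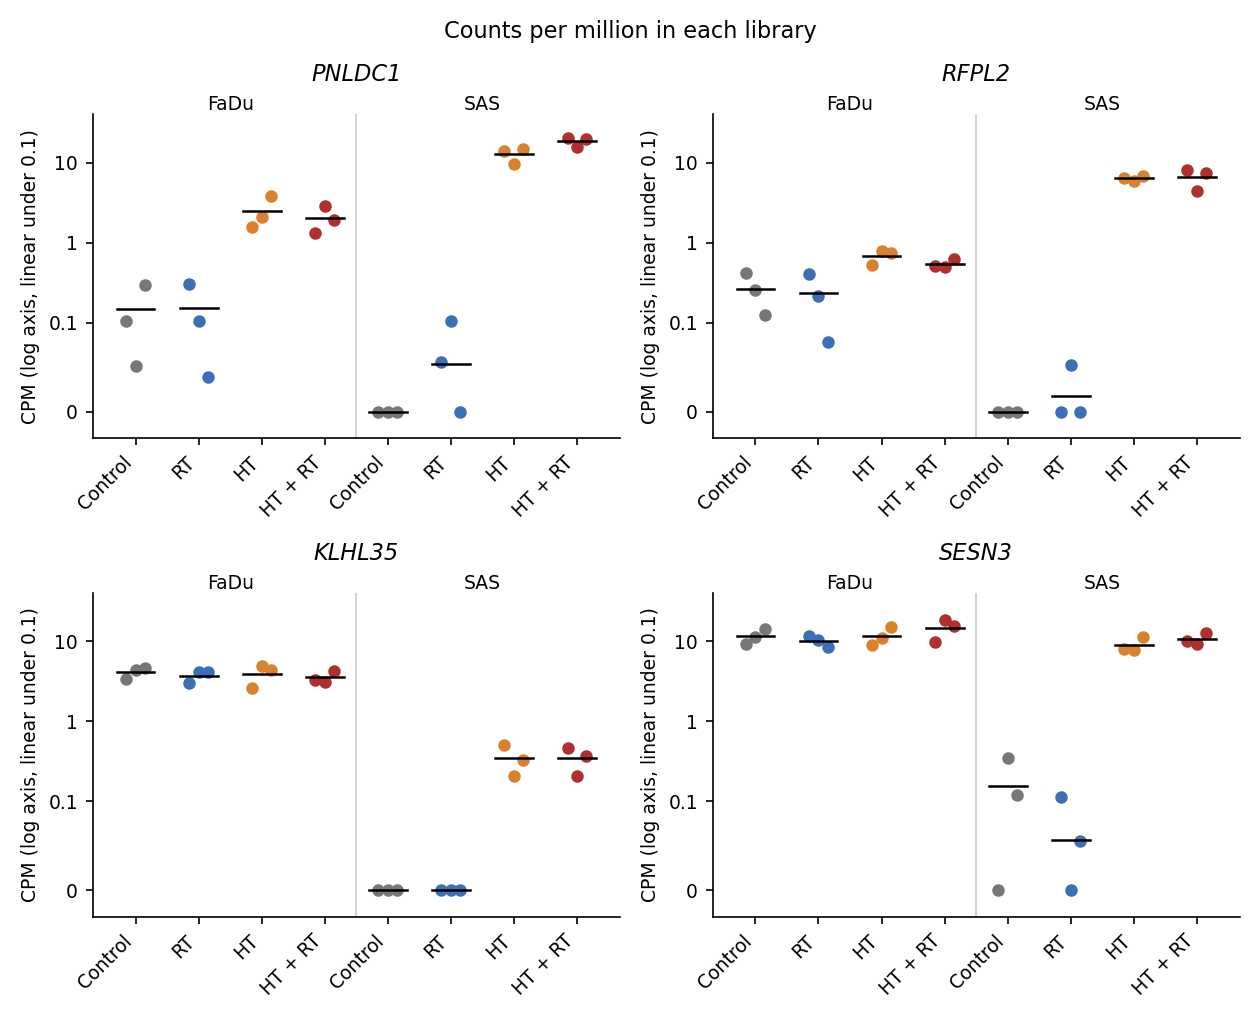
Scaled counts (CPM, on a log axis that is linear under 0.1) of the 4 genes in each of the 24 libraries, by line and treatment, with a point for each library and a bar at the mean of 3. In SAS spheroids the heated libraries of each gene lie above the unheated ones, while the FaDu groups of KLHL35 and of SESN3 overlap.

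The 300 bases from 250 before to 50 after the start of each gene are shown because the 4 genes rose together in SAS spheroids and heat shock elements are the letters known to mark heat-induced promoters. All 4 genes were matched in the RefSeq promoter windows of GRCh38.p14, RFPL2 with 2 windows for 2 starts. PNLDC1 lies at chr6:159800026-159800325 (+), the RFPL2 windows at chr22:32203428-32203727 (-) and chr22:32205024-32205323 (-), KLHL35 at chr11:75433154-75433453 (-) and SESN3 at chr11:95232426-95232725 (-). Capitals mark each single GAA or TTC.
PNLDC1: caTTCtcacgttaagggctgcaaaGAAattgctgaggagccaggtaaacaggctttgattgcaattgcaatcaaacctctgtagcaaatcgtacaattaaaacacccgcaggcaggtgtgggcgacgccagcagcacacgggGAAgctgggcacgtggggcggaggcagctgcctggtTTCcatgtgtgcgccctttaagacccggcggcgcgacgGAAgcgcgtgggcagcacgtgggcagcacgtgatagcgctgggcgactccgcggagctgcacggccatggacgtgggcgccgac
RFPL2, downstream start: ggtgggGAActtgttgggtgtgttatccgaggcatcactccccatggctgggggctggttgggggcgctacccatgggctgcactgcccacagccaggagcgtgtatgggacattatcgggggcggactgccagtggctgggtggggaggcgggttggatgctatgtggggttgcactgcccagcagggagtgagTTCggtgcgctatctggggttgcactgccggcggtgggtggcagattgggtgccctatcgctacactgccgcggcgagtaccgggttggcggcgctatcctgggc
RFPL2, upstream start: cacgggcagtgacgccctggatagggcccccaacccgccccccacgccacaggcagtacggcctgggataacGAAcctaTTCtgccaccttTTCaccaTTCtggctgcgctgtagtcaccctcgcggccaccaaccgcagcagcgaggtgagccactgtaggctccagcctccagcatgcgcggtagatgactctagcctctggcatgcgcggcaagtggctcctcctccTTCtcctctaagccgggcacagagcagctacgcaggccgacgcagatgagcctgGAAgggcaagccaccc
KLHL35: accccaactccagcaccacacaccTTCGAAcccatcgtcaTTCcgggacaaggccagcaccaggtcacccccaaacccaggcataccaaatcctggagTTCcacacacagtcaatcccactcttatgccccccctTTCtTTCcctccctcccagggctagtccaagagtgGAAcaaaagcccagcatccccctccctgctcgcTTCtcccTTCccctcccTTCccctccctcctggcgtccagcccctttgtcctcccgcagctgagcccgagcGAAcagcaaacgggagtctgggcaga
SESN3: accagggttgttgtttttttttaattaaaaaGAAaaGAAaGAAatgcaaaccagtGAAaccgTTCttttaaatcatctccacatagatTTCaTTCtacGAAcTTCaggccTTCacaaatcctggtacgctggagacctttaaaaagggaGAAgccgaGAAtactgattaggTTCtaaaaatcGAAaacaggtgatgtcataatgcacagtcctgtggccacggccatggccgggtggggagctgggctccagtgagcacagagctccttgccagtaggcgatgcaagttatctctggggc
On either strand, 0 of these 5 windows held 2 alternating units spaced by 2 bases (GAANNTTC or TTCNNGAA), and 0 held 3 units (GAANNTTCNNGAA or TTCNNGAANNTTC), a motif that contains the shorter one. Of all 35116 promoter windows of this length, 4737 (13.5%) held 2 units and 172 (0.490%) held 3 units. In 40 windows of 25 cytosolic heat shock response genes, 20 (50%) held 2 units and 8 (20%) held 3. SESN3 had the most single units, 14, followed by KLHL35 with 11, RFPL2 with 6 and 2, and PNLDC1 with 5, while the median of all windows was 9 and their 5th to 95th percentiles ran from 3 to 17. SESN3 also had the lowest share of G and C, 45%, against 61% in PNLDC1 and KLHL35, 64.7% and 65.7% in RFPL2, and a median of 58.7% over all windows. These matches are a description of letters, and the absence of a motif says only that it is not written in these windows.

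PNLDC1 (ENSG00000146453) lies on chromosome 6 and encodes the poly(A)-specific ribonuclease-like protein that matures piRNAs, small RNAs that silence transposons in the germ line. SAS spheroids had 0, 0 and 0 counts in controls, 246, 186 and 272 with HT, and 306, 308 and 383 with HT + RT. The heated SAS libraries were all far above the unheated ones, and all 3 HT + RT libraries lay above all 3 HT libraries after scaling to CPM. The share of all genes with such a separation of HT + RT from HT was not counted, so nothing is read from it. PNLDC1 averaged 12.8 ± 2.69 CPM in the HT and 18.7 ± 2.49 CPM in the HT + RT libraries (SD, n = 3), at least 225-fold and at least 329-fold higher than in SAS control spheroids. The bound rests on how many reads the controls held, and with any 1 control library left out it was at least 147-fold to 153-fold for HT and at least 215-fold to 224-fold for HT + RT. Both bounds use the same controls. SAS spheroids after RT alone had 1, 2 and 0 counts, or 0.0537 ± 0.0525 CPM (SD, n = 3), and lay with the controls. After HT the SAS level of PNLDC1 was 5.13-fold that of FaDu spheroids (95% interval 4.20 to 6.10), a description.

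FaDu spheroids provide libraries for PNLDC1 that the choice did not name. Counts were 2, 1 and 7 in control spheroids, 27, 40 and 72 after HT, 6, 2 and 1 after RT, and 23, 46 and 59 after HT + RT. Each of the 6 heated FaDu libraries was above each of the 6 unheated ones, and the HT and HT + RT libraries overlapped. Mean levels were 0.150 ± 0.127 CPM in control spheroids, 2.49 ± 1.16 CPM after HT, 0.151 ± 0.140 CPM after RT and 2.04 ± 0.785 CPM after HT + RT (SD, n = 3). In edgeR's fit PNLDC1 rose by a log2 fold change of 3.96 ± 0.57 (SE) after HT. HT + RT against the same controls gave 3.65 ± 0.52. HT + RT against RT, which shares no library with HT against control, gave 3.79 ± 0.57. In each of these comparisons 3 of the 4 genes passed the filter for low counts, but PNLDC1 passed only through its heated libraries. No p-value of these fits and no count of altered genes among the 3 is therefore given. In fits without the filter its log2 fold changes were 3.93, 3.64 and 3.77, each altered. Those fits altered 1382 of 35428, 1487 of 32966 and 1385 of 34057 genes. Of all genes tested with the filter, 4.97% of 15879, 5.72% of 15896 and 5.39% of 15905 were altered. The size of these changes depended on single unheated libraries. Without FaDu control replicate 3, which held 7 of the 10 control counts, the log2 fold change was 4.92 for HT and 4.61 for HT + RT, and without RT replicate 1 it was 4.79 for HT + RT against RT. Without replicate 1 of both groups, an alternative chosen after the data were seen, it was 4.00 for HT, 3.64 for HT + RT and 5.0 for HT + RT against RT.

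After irradiation alone PNLDC1 had 9 counts in FaDu spheroids against 10 in controls, too few to pass the filter. Of the 4 genes 2 were tested for RT against control in FaDu spheroids, and 0 were altered by edgeR, 0 at an unadjusted p under 0.05 and 0 by DESeq2, beside 0.00643% of 15552 genes altered by edgeR. In SAS spheroids after RT, 0 of the 4 genes passed the filter, so that 0 could be altered, while 0.0272% of 14680 genes were altered. PNLDC1 had 3 counts over the SAS RT libraries and 0 over the controls, and no fold is given because both are at or under the floor. When RT was added to HT in FaDu spheroids, all 4 genes were tested and 0 were altered by edgeR, 0 at an unadjusted p under 0.05 and 0 by DESeq2, beside 0% of 16145 genes (361 at an unadjusted p under 0.05, 2 altered by DESeq2). The PNLDC1 log2 fold change of HT + RT over HT was -0.32 ± 0.39 there. The same step in SAS spheroids gave 0.56 ± 0.16, a description of a change smaller than the fold threshold, and 0% of all 15341 genes were altered by edgeR (673 at an unadjusted p under 0.05, 3 altered by DESeq2). The difference between the lines in these responses was not tested.

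**Figure D2:**
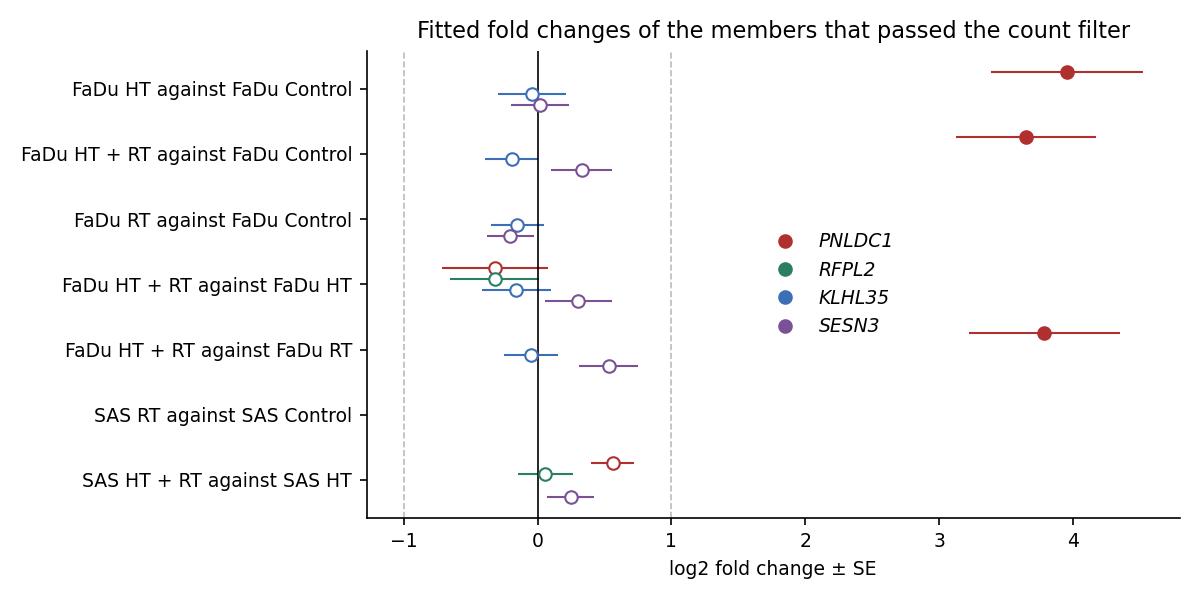
Fitted log2 fold changes with SE (horizontal axis) of each of the 4 genes that passed the count filter, for 7 comparisons within a line, filled where altered and open where not, with dashed lines at the threshold of 1. PNLDC1 is altered in the 3 FaDu comparisons of heated with unheated spheroids, where it passed the filter only through its heated libraries, and in no other FaDu comparison. Points of SAS HT + RT against HT are drawn open as a description and are not read as a test. SAS RT against control is empty because 0 genes passed.

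PNLDC1 follows MRPL18, a gene for a mitochondrial ribosomal protein, on the same strand as its nearest upstream neighbour. MRPL18 was itself higher after heat, at 78.9 ± 5.21 CPM in SAS control spheroids, 293 ± 36.4 CPM in HT and 344 ± 3.67 CPM in HT + RT spheroids, and at 57.3 ± 1.95, 124 ± 14.5 and 145 ± 15.3 CPM in the same FaDu groups (SD, n = 3). Its log2 fold changes were 1.92 and 2.17 in SAS and 1.14 and 1.36 in FaDu spheroids, all altered. Per 100 reads of MRPL18, PNLDC1 had 5.41, 3.32 and 4.48 reads after HT and 5.88, 4.66 and 5.75 after HT + RT in SAS spheroids, against 0 in controls. In FaDu spheroids this ratio was 1.37, 1.80 and 2.70 after HT, 1.39 ± 0.470 after HT + RT and 0.260 ± 0.221 in control spheroids (SD, n = 3). The PNLDC1 share was thus higher in each heated library than in each unheated library of both lines, and whether reads from MRPL18 transcripts that ran past their end added to its counts was not tested. The snoRNA gene SNORA20, further upstream and on the opposite strand, had 1 summed count in control and 281 in HT spheroids of FaDu, and 4 and 56 in those of SAS. IGF2R stayed close to its level in SAS spheroids at 259 CPM in controls, 242 CPM with HT and 260 CPM with HT + RT, MAS1 had at most 3 counts in any group, and SNORA29 and AL035691.1 had 0.

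Few other genes of the piRNA pathway besides PNLDC1 could be tested. Of 27 listed genes 7 were tested in FaDu and 8 in SAS spheroids, and 0 were altered by edgeR after HT or HT + RT. At an unadjusted p under 0.05 there were 0 after HT and 2 after HT + RT in FaDu and 2 and 2 in SAS spheroids, and DESeq2, with its own filter, altered 0, 1, 0 and 2. All genes were altered at 4.97% and 5.72% in FaDu and 6.03% and 6.36% in SAS spheroids, and 7 or 8 genes are too few to tell from these shares. Their median log2 fold changes were 0.03 for HT and for HT + RT in FaDu and -0.02 and -0.04 in SAS spheroids, beside medians of 0.01 for all genes in FaDu and 0.00 in SAS spheroids. PIWIL2, a PIWI protein that binds piRNAs, had 6, 14, 20 and 37 summed counts in SAS control, RT, HT and HT + RT spheroids and 2, 0, 13 and 19 in the same FaDu groups. DNMT3L, a cofactor of DNA methylation in germ cells, had 1, 0, 6 and 26 in SAS and 0, 1, 14 and 17 in FaDu. Both were chosen after their values were seen and did not pass the filter, while HENMT1 with 4522 summed counts in FaDu control and 3428 in HT spheroids, and PLD6 with 563 and 467 in those of SAS, went the other way. The 12 listed deadenylases, enzymes that shorten poly(A) tails and include the PNLDC1 relative PARN, were all tested. Only NOCT was altered among them, with log2 fold changes of 1.97 and 2.10 for HT and HT + RT in FaDu and 1.86 and 1.96 in SAS spheroids, and the list's medians lay between -0.12 and -0.05. Of 8 germ cell markers 7 had 0 counts in SAS control spheroids, and their summed level was 0.0982 CPM there, 0.738 CPM with HT and 1.33 CPM with HT + RT. DAZL, an RNA-binding protein of germ cells, made up most of the latter with 31 counts after HT and 58 after HT + RT, and had 0, 9 and 9 in FaDu control, HT and HT + RT spheroids. It was the 1 germ cell marker tested against SAS controls, for HT + RT, and passed the filter only through the heated libraries, so that no call is given. SYCP3 had 5, 10 and 12 summed counts in SAS control, HT and HT + RT spheroids and 2, 11 and 4 in the same FaDu groups, and SYCP1 had at most 5 in any group. DDX4, STRA8, TNP1, PRM1 and PRM2, the other markers of the list, had at most 1 summed count in any group. The part of other germ line transcripts in the PNLDC1 result was not tested.

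RFPL2 (ENSG00000128253), on chromosome 22, encodes a ret finger protein-like protein with a B30.2 domain, a module for protein binding. In SAS spheroids it had 0, 0 and 0 counts in controls, 0, 1 and 0 after RT, 114, 112 and 127 with HT, and 120, 87 and 143 with HT + RT. Heated and unheated SAS libraries were fully apart, and HT and HT + RT overlapped. RFPL2 averaged 6.38 ± 0.523 CPM in the HT and 6.62 ± 1.89 CPM in the HT + RT libraries (SD, n = 3), at least 113-fold and at least 117-fold higher than in the controls they share. With 1 control library left out, the bounds were at least 73.4-fold to 76.4-fold and at least 76.2-fold to 79.3-fold. RT on top of HT gave a log2 fold change of 0.06 in SAS spheroids, a description.

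FaDu spheroids showed a small shift of RFPL2 in the same direction. Counts were 8, 5 and 3 in control spheroids, 8, 4 and 2 after RT, 9, 15 and 14 with HT, and 9, 8 and 19 with HT + RT. In CPM each of the 3 HT libraries and each of the 3 HT + RT libraries lay above each control library, at means of 0.683 ± 0.138, 0.545 ± 0.0662 and 0.267 ± 0.147 CPM (SD, n = 3). As the share of all genes with such a separation was not counted, nothing is read from it. RFPL2 did not pass the filter for these comparisons. With a minimum count of 5 edgeR gave a log2 fold change of 1.40 ± 0.49 for HT (adjusted p = 0.0876), of 1.09 ± 0.48 for HT + RT (adjusted p = 0.162) and of 1.29 ± 0.54 for HT + RT against RT (adjusted p = 0.143). The size of the change depended on replicate 1, whose control library held 8 of the 16 control reads. Without replicate 1 of both groups, which left 2 libraries per group, the log2 fold changes were 2.04 ± 0.60, 1.62 ± 0.59 and 2.04 ± 0.65, but RFPL2 then passed the filter only through its heated libraries, so that no call is made. Fits of all libraries without the filter gave adjusted p of 0.115, 0.275 and 0.187. Over all fits that held the gene the adjusted p ranged from 0.0124 to 0.275, from 0.0341 to 0.439 and from 0.0227 to 0.345. Added to HT, RT gave -0.32 ± 0.33 for RFPL2 (adjusted p = 1.0). After HT, RFPL2 was 9.35-fold higher in SAS than in FaDu spheroids (interval 6.62 to 13.3), a description.

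The RFPL2 coding sequence was identical to that of RFPL3 in 94.9% and to that of RFPL1 in 92.9% of 942 aligned bases, so that reads shared between these genes make their counts uncertain. The other 7 listed genes of the family, RFPL1, RFPL3, RFPL4A, RFPL4AL1, RFPL4B, RFPL1S and RFPL3S, had at most 16 summed counts in any group, and 0 of them passed the filter in the heat comparisons. RFPL4B, chosen after its values were seen, had 3, 6, 2 and 14 summed counts in SAS control, RT, HT and HT + RT spheroids. Within the annotated neighbourhood of RFPL2, the immunoglobulin pseudogene IGLCOR22-1 overlaps it on the opposite strand and had 0 summed counts in SAS control spheroids, 13 after HT and 17 after HT + RT. Whether counting used the strand is not given in the sources used here, so that reads of overlapping genes cannot be told apart. C22orf42, AL008723.2 and RF02171 had next to no reads, SLC5A4 at most 1 in any SAS group, and SLC5A4-AS1 had 33, 49, 23 and 13 summed counts in FaDu control, RT, HT and HT + RT spheroids.

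KLHL35 (ENSG00000149243), on chromosome 11, belongs to the Kelch-like proteins, many of which bring substrates to the CUL3 ubiquitin ligase. SAS spheroids had 0 counts in all 6 libraries of the control and RT groups, 9, 4 and 6 with HT, and 7, 4 and 7 with HT + RT. Its reads after heat were few but present in each of the 6 heated libraries. KLHL35 averaged 0.347 ± 0.150 CPM in the HT and 0.345 ± 0.131 CPM in the HT + RT libraries (SD, n = 3), at least 6.12-fold and at least 6.08-fold higher than in control spheroids. With any 1 control library left out these bounds were at least 3.99-fold to 4.16-fold and at least 3.97-fold to 4.13-fold. KLHL35 did not pass the filter for HT + RT against HT in SAS spheroids. FaDu spheroids had 64, 86 and 110 counts in controls, 58, 76 and 104 after RT, 44, 93 and 82 with HT, and 57, 50 and 128 with HT + RT. All 4 FaDu groups overlapped, and every FaDu library was above every SAS library. The log2 fold changes against FaDu controls were -0.04 ± 0.26 for HT (adjusted p = 0.933), -0.19 for HT + RT (adjusted p = 0.560) and -0.15 for RT (adjusted p = 1.0). Without replicate 1 of both groups they were 0.06 for HT and -0.25 for HT + RT, and HT + RT against RT went from -0.05 to -0.11, none altered. After RT, KLHL35 had 0 counts in SAS against 238 in FaDu spheroids and was at least 67.7-fold lower in SAS. With any 1 SAS library left out it was at least 44.1-fold to 45.8-fold lower. This is a description, since the choice required near-silence in SAS controls and RT altered 0.0272% of 14680 genes in SAS spheroids. KLHL35 and SESN3 passed the filter there, both only through FaDu libraries, so that no call and no count of altered genes is given. Of all 16030 genes tested 38.7% were altered, and the doses differed between the lines. After HT, KLHL35 was 11.3-fold lower in SAS than in FaDu spheroids, a description.

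The 43 listed Kelch-like and CUL3 ligase genes found in the tables included 31 tested in FaDu and 32 in SAS spheroids. After HT 2 rose and 2 fell in FaDu, and 2 rose and 0 fell in SAS spheroids, with list medians of -0.08 and -0.12, beside altered shares of 4.97% and 6.03% of all genes. KLHL25 rose by log2 fold changes of 1.62 and 2.27 and KLHL15 by 1.72 and 1.31 in FaDu and SAS spheroids. KLHL26 fell by 1.12 and KLHL31 fell by 1.95 on the log2 scale in FaDu spheroids. After HT + RT the same 4 genes were altered in FaDu, at 2.09, 1.89, -1.14 and -1.28, and the same 2 in SAS spheroids, at 2.86 and 1.23, with medians of -0.07 and -0.10. Altered shares of all genes after HT + RT were 5.72% in FaDu and 6.36% in SAS spheroids. CUL3 itself had log2 fold changes of -0.79 in FaDu and -0.18 in SAS spheroids after HT and was not altered. The third gene upstream of KLHL35, on the opposite strand, is SERPINH1, which encodes a chaperone of collagen. SERPINH1 was at 238 CPM in SAS control spheroids, 2475 CPM with HT and 2444 CPM with HT + RT, and at 203, 639 and 730 CPM in the same FaDu groups. GDPD5, which lies between them on the strand of KLHL35, had 10.3 CPM in SAS control and 9.27 CPM in HT spheroids (log2 fold change -0.12) and was not altered. Downstream, RPS3 had log2 fold changes of 0.22 for HT and 0.18 for HT + RT in SAS spheroids, SNORD15A had at most 5 summed counts in any group, and SNORD15B had 7, 15, 21 and 45 in FaDu control, RT, HT and HT + RT spheroids and 19, 29, 22 and 25 in the SAS groups. AP002815.1 had 0 counts. The part of SERPINH1 in the few reads of KLHL35 was not tested.

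**Figure D3:**
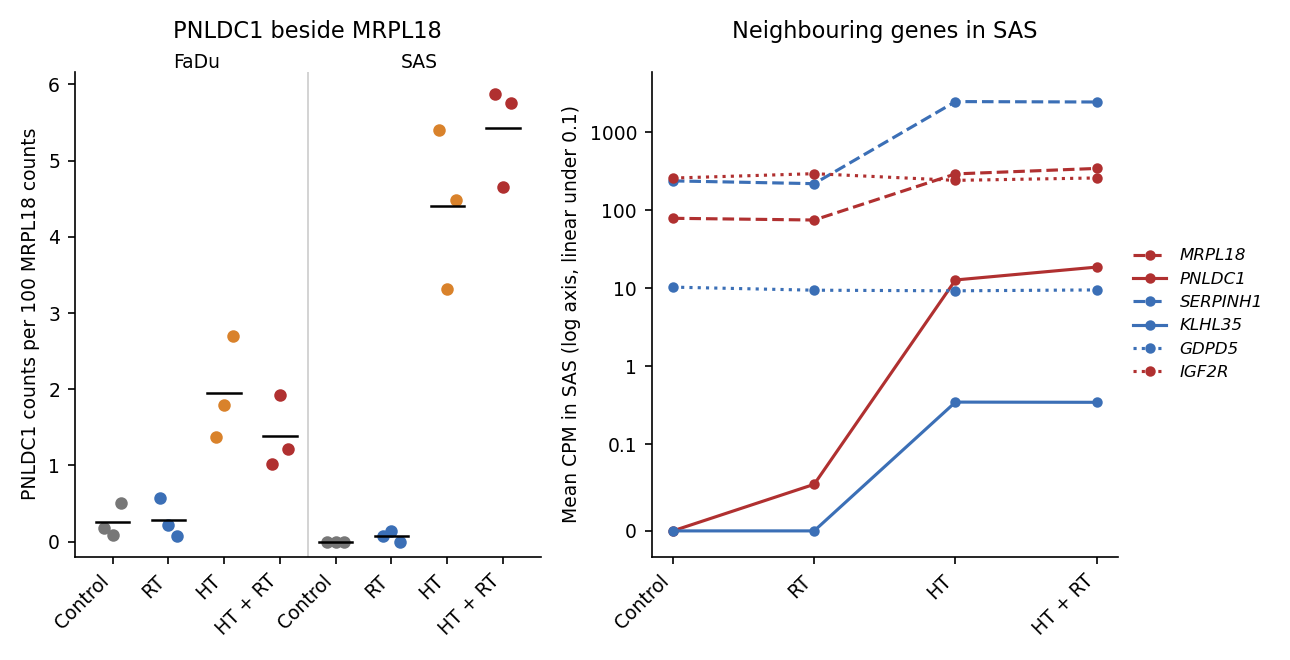
Left, PNLDC1 counts per 100 MRPL18 counts in each library, with a point per library and a bar at the mean of 3 in each of the 8 groups. Right, mean CPM (on a log axis that is linear under 0.1) of PNLDC1, KLHL35 and neighbouring genes in the 4 SAS groups, where MRPL18 and SERPINH1 are higher after heat and IGF2R and GDPD5 are not.

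SESN3 (ENSG00000149212), also on chromosome 11, encodes sestrin 3, which restrains mTORC1 through the GATOR complexes and is a known target of FOXO factors. Its SAS counts were 0, 6 and 2 in controls, 2, 0 and 1 after RT, 143, 148 and 210 with HT, and 150, 181 and 243 with HT + RT. All heated SAS libraries were above all unheated ones, and HT and HT + RT overlapped. From 0.153 ± 0.174 CPM in control spheroids SESN3 went to 9.05 ± 2.03 CPM in HT and 10.6 ± 1.73 CPM in HT + RT spheroids (SD, n = 3), 59.0-fold (interval 30.1 to 139) and 69.3-fold (35.6 to 164) higher. Control replicate 2 held 6 of the 8 control reads, so that the size of these folds depended on it. The other control libraries held 0 and 2 reads, under the floor of 3 counts over a group, and no fold is given without it. RT on top of HT gave a log2 fold change of 0.25, a description.

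FaDu spheroids had 175, 223 and 339 SESN3 counts in controls, 222, 195 and 217 after RT, 153, 208 and 280 with HT, and 171, 290 and 468 with HT + RT. These 4 groups overlapped. The log2 fold changes were 0.02 ± 0.22 for HT (adjusted p = 0.969), 0.33 ± 0.23 for HT + RT (adjusted p = 0.372), -0.20 for RT (adjusted p = 1.0) and 0.53 ± 0.22 for HT + RT against RT (adjusted p = 0.135). The adjusted p depended on the fit, while every change was smaller than the fold threshold. Without replicate 1 of both groups SESN3 had 0.03 for HT (adjusted p = 0.895), 0.38 for HT + RT (adjusted p = 0.0171) and 0.83 for HT + RT against RT (adjusted p = 9.02e-05). With replicate numbers blocked, HT + RT against control gave 0.31 (adjusted p = 0.0430). Over all fits the adjusted p ran from 0.0171 to 0.755 for HT + RT against control and from 9.02e-05 to 0.369 for HT + RT against RT. In spheroids after RT alone, SESN3 was 180-fold lower in SAS than in FaDu, with 3 counts against 634. The log2 fold change of -7.40 ± 0.39 is a description. It passed the filter there only through its FaDu libraries. The ratio of SAS over FaDu was 0.00555 (interval 0.00113 to 0.0161). Without SAS RT replicate 1, which held 2 of the 3 SAS reads, the log2 fold change was -8.28, with 1 SAS read left. Without SAS RT replicate 2, which held 0, it was -6.83. After HT the SESN3 levels of both lines overlapped, at a ratio of SAS over FaDu of 0.785, a description. PNLDC1 (3 counts against 9) and RFPL2 (1 against 14) did not pass the filter in the comparison of lines after RT.

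The relatives of SESN3 are SESN1 and SESN2. The coding sequence of SESN3 was identical in 68.3% of 1429 aligned bases to SESN1 and in 64.2% of 1406 to SESN2. SESN1 had log2 fold changes of -0.76 for HT and -0.63 for HT + RT in SAS spheroids and of -0.68 and -0.80 in FaDu spheroids, none past the fold threshold. SESN2 was at 0.52 after HT and rose by 1.16 ± 0.18 after HT + RT in SAS spheroids (adjusted p = 0.000584), while in FaDu spheroids it was at -0.26 and -0.06 and not altered. It was the 1 altered gene of the 35 listed for sestrins and mTORC1 in that comparison, of 34 tested, and 0 of 34, 0 of 34 and 0 of 35 were altered after HT in FaDu, HT + RT in FaDu and HT in SAS spheroids. At an unadjusted p under 0.05 these were 10, 9 and 10, and DESeq2 altered 0 in each of the 3. The medians of the list were -0.07 and -0.01 in FaDu and -0.13 and -0.07 in SAS spheroids. Of 19 listed FOXO factors and targets, 18 were tested in FaDu and 17 in SAS spheroids, where altered shares of all genes were 4.97% and 5.72% in FaDu and 6.03% and 6.36% in SAS after HT and HT + RT. TXNIP (1.71) and BCL6 (1.52) rose after HT in SAS spheroids, and BCL6 (1.64), TXNIP (1.63) and CITED2 (1.14) after HT + RT. In FaDu spheroids IRS2 (1.01) rose and PIK3IP1 (-1.25) fell after HT, while KLF6 (1.53), IRS2 (1.24), GADD45A (1.06) and CITED2 (1.03) rose after HT + RT. Of these, KLF6 with 1543, 2726, 1622 and 4566 and GADD45A with 984, 1875, 1507 and 2095 summed counts in FaDu control, RT, HT and HT + RT spheroids were higher after RT without heat too. Medians over this list of factors and targets were 0.05 and 0.15 in FaDu and 0.07 and 0.07 in SAS spheroids. AP000787.1, an antisense gene that overlaps SESN3, had 11, 22, 21 and 28 summed counts in SAS control, RT, HT and HT + RT spheroids and so did not show the step of SESN3. Of the remaining neighbours, BUD13P1, AP000787.2, AP000787.3 and AP001790.1 had at most 5 summed counts in any group, and AP000820.2 was not among the counted genes.

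Levels of different genes are compared per kilobase of exon, at 2.21 kb for PNLDC1, 2.72 kb for RFPL2, 5.04 kb for KLHL35 and 10.6 kb for SESN3. In SAS spheroids after HT the order was PNLDC1 at 5.79, RFPL2 at 2.35, SESN3 at 0.856 and KLHL35 at 0.0688 CPM per kb, and after HT + RT it was the same at 8.47, 2.44, 1.0 and 0.0684. FaDu control spheroids had another order, with SESN3 at 1.10, KLHL35 at 0.817, RFPL2 at 0.0981 and PNLDC1 at 0.0679 CPM per kb. The genes highest in unheated FaDu spheroids were thus the lowest of the 4 in heated SAS spheroids. Across the 8 groups PNLDC1 fell from SAS HT + RT over SAS HT, without overlap, to FaDu HT and FaDu HT + RT, which overlapped each other and stood apart from FaDu RT, FaDu control, SAS RT and SAS control, each of which overlapped the next. RFPL2 had SAS HT + RT and SAS HT on top, overlapping, then FaDu HT and FaDu HT + RT, overlapping, then FaDu control and FaDu RT, overlapping, and last SAS RT and SAS control, with gaps between these pairs. For KLHL35 the 4 FaDu groups came first and overlapped, in the order control, HT, RT and HT + RT, and were followed after a gap by SAS HT and SAS HT + RT, and after another by SAS RT and SAS control at 0. SESN3 had 6 groups that overlapped from each to the next, FaDu HT + RT, FaDu control, FaDu HT, SAS HT + RT, FaDu RT and SAS HT, and below a gap SAS control and SAS RT. Heated SAS spheroids thus reached the FaDu range for SESN3, exceeded it for PNLDC1 and RFPL2, and stayed under it for KLHL35. How often such gaps between groups occur over all genes was not counted, so these orders are a description.

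The 4 genes were among many as silent. In SAS control spheroids 39904 genes had at most 8 summed counts, the sum of SESN3, and 31570 of them had 0. After HT, 446 of these (1.12%), 199 of them protein-coding, reached at least 0.347 CPM, the mean of KLHL35, which is at the lower end of the 446 by construction. At a level of at least 5 CPM there were 14, of which 10 were protein-coding. Ordered by mean CPM, which is not scaled to exon length, PNLDC1 was number 5 of them, SESN3 number 7 and RFPL2 number 12. The highest of the 14 was HSPA7 at 170 CPM, and the lowest was CRYAB, a small heat shock protein, at 5.25 CPM. CRYAB resembled PNLDC1 and RFPL2 in having 0 counts in SAS control spheroids, but had 138 summed counts in FaDu control and 550 in FaDu HT spheroids.

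**Figure D4:**
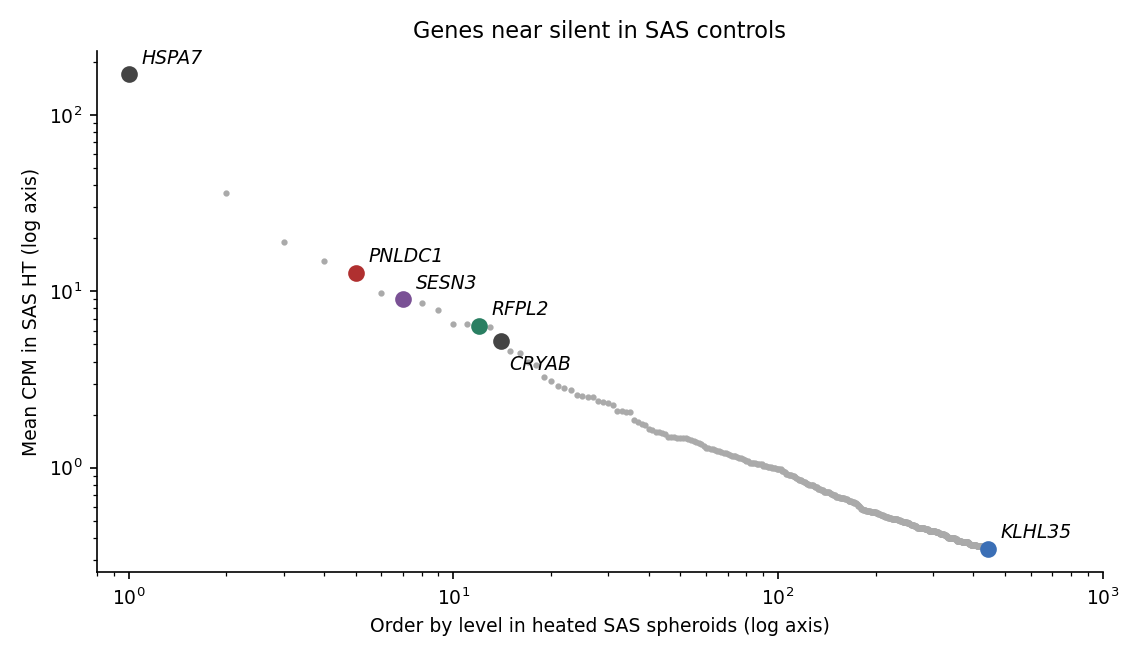
Mean CPM after HT in SAS spheroids (log axis) of the 446 genes with at most 8 summed counts in SAS control spheroids and at least the level of KLHL35 after HT, in order of level (log axis), with the 4 genes, HSPA7 and CRYAB marked. PNLDC1, SESN3 and RFPL2 are among the highest 14, and KLHL35 is at the lower end by construction.

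The heat response itself was strong in both lines. Altered shares of all genes were 4.97% and 5.72% in FaDu and 6.03% and 6.36% in SAS spheroids after HT and HT + RT. Among 27 cytosolic heat shock response genes, 17 rose after HT and 17 after HT + RT in FaDu and 21 and 23 in SAS spheroids, and 0 fell, with median log2 fold changes of 1.57, 1.87, 2.85 and 3.02. CRYAB, without a count in SAS control spheroids, was 1 of them, and with it at its bound the SAS medians were the same. HSPA6, an inducible member of the HSP70 family, stood at 0.443 CPM in control and 4384 CPM in HT spheroids of FaDu, and at 0.758 and 1959 CPM in those of SAS. DNAJB1 stood at 3878 and HSPA1A at 3908 CPM in SAS spheroids after HT. The highest rises of the list after HT were those of HSPA6 (13.31), HSPA1B (5.0) and DNAJB1 (4.96) in FaDu, and the lowest were those of HSPB1 (1.54), FKBP4 (1.28) and DNAJA1 (1.15) in FaDu and of HSPA4 (1.15), AHSA1 (1.14) and HSPD1 (1.02) in SAS spheroids. The highest rises in SAS spheroids are not ranked here. Summed counts in SAS control and HT spheroids were 40 and 108764 for HSPA6 and 22 and 1535 for HSPB8.

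By a fixed rule, the 5 genes most like each of the 4 were those with the highest Pearson r of log2(CPM + 1) over the 24 libraries among 16096 genes. PNLDC1 was most like CCDC121 (r = 0.984), AC021739.2 (0.982), NAALAD2 (0.980), SERPINH1 (0.980) and DCAF4L1 (0.979). RFPL2 was most like TNFSF14 (0.984), AC093591.3 (0.979), SLC10A1 (0.975), MICB (0.973) and C18orf25 (0.972). SESN3 was most like NUDT9 (0.987), COL1A1 (0.973), KCNJ14 (0.970), SYNM (0.966) and TYW3 (0.964), although within the 12 FaDu libraries TYW3 had r = -0.0837. KLHL35 was most like APOE (0.991), TNNT3 (0.991), TJP3 (0.990), CEPT1 (0.989) and TMC4 (0.989), a likeness to genes that are higher in FaDu than in SAS spheroids. The libraries of a line and of a treatment share these patterns, so that r describes group means more than single libraries. By Spearman's rank correlation 2 of the 5 genes named for KLHL35 were again among its 5 highest, and 0 for each of the other 3. Between the 4 genes themselves, r over 24 libraries was 0.963 for PNLDC1 and RFPL2, 0.721 for KLHL35 and SESN3, 0.489 for PNLDC1 and SESN3, 0.435 for RFPL2 and SESN3, -0.208 for PNLDC1 and KLHL35 and -0.277 for RFPL2 and KLHL35. Within FaDu libraries, which the choice did not name, these were 0.835, 0.226, 0.555, 0.284, -0.0643 and -0.121. PNLDC1 and RFPL2 were again the most alike there, though RFPL2 had few reads in FaDu libraries. Within SAS libraries, where the choice required a rise of each gene, r ran from 0.923 (KLHL35 and SESN3) to 0.994 (PNLDC1 and SESN3). For PNLDC1 and RFPL2 it was 0.993 there.

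Markers of the tissue were present in all groups. The 11 squamous epithelial markers summed to 10341 CPM in FaDu control and 11671 CPM in FaDu HT spheroids, and to 4265 and 4387 CPM in SAS spheroids, with KRT17 the most abundant and none at 0. By edgeR 0 of the 11 were altered after HT in either line or after HT + RT in FaDu spheroids (4, 6 and 4 at an unadjusted p under 0.05, 0 by DESeq2), and KRT16 (1.13) after HT + RT in SAS spheroids. Altered shares of all genes were 4.97% and 5.72% in FaDu and 6.03% and 6.36% in SAS spheroids after HT and HT + RT. Lists with 11, 5 or 4 genes tested are too short to tell from these shares. Among markers of fibroblasts, endothelium and leukocytes, COL1A1 rose in SAS spheroids, with 1.33 CPM in control and 23.6 CPM in HT spheroids and log2 fold changes of 4.18 for HT and 4.23 for HT + RT. It was the 1 altered of 4 tested in SAS spheroids, and in FaDu spheroids 0 of 5 were altered by edgeR after HT or HT + RT (1 at an unadjusted p under 0.05 in each, 0 by DESeq2). Not all such markers were absent, since in SAS control and HT spheroids the leukocyte marker PTPRC had 0 and 0 summed counts, but CD68 had 94 and 87 and the endothelial marker CDH5 had 771 and 841.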

How the data were processed

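RNA of FaDu and SAS spheroids was measured in 24 libraries, 3 per group. The authors deposited whole-number read counts per gene for 57500 Ensembl identifiers, without normalization, and normalized tables that were not used here. The aligner, the counting program, its strand setting and the genome build are not given in the sources used here, apart from the mouse build mm9 in the submitters' processing notes, although the samples are human. Symbols came from GENCODE release 29, which lacked 602 identifiers (0.0217% of the counts). Total counts per library were 15203484 to 29452514. The members and the gene lists were chosen with earlier results of these data known. The choice of members names no FaDu library.

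Counts were tested over all genes with edgeR 4.0.16 in R 4.3.3 (filterByExpr with a minimum count of 10, TMM, quasi-likelihood test, Benjamini-Hochberg adjustment within each comparison, only the groups compared), after the code was tested on simulated data. Altered means an adjusted p under 0.05 together with a log2 fold change above 1 or below -1. SEs are the fold change divided by the root of the F statistic. Levels are CPM, scaled by TMM across the 24 libraries. Counting intervals are exact binomial at 0.95, and floors are 3 counts over a group. Promoters came from RefSeq (GRCh38.p14), and coding sequences of GENCODE transcripts were aligned with Biopython 1.88.

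Named genes were the 4 members, 3 annotated neighbours on each side, the 5 most like genes, and list genes that were altered (above 6, the 3 highest and 3 lowest). Some further genes, such as PIWIL2, HENMT1, CUL3 and HSPA7, were named outside this rule. Alternatives were RLE size factors, DESeq2 1.42.0, no filter, a minimum count of 5, all groups in 1 fit, a replicate block, each library left out, adjusted p alone, and, added after the data were seen, replicate 1 left out of both FaDu groups. Same-numbered libraries deviated together (correlation over 0.1 in every pair) in all comparisons within FaDu, and in SAS for RT against control, HT + RT against control, HT + RT against RT and HT + RT against HT. They did not for HT against control in SAS or between lines.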

Additional observations from a re-analysis of the deposited data

How the results depend on the processing

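The number of the 4 genes altered was within 1.5 times that of the main fit in 106 of 109 alternatives. These include RT against control and RT on HT in SAS spheroids and SAS against FaDu spheroids after RT, which are only described. The number of altered genes is not read as a result where a gene passed the filter through 1 group only. No log2 fold change that was altered in the main fit changed sign. For RT against control in SAS spheroids, where 0 of the 4 genes passed the filter, the count could hardly move, so its alternatives say little. The exceptions are the 3 comparisons of heated with unheated FaDu spheroids (HT or HT + RT with control, HT + RT with RT). There PNLDC1 alone was altered in the main fit, and RFPL2 too without replicate 1 of both groups. PNLDC1 passed the filter only through its heated libraries, so that no count is read there. Without that replicate RFPL2 passed the filter, only through its heated libraries and with 2 libraries per group, so that its call is not read as support, and the cause was not tested. For RT on HT in SAS spheroids, the replicate block gave PNLDC1 a log2 fold change of 0.57, and for HT + RT against control in FaDu it gave SESN3 0.31 (adjusted p = 0.0430), both under the fold threshold, and no call changed where a paired fit held the gene, which RFPL2 lacked in the FaDu heat comparisons. SESN3 had an adjusted p from 9.02e-05 to 0.369 for HT + RT against RT in FaDu, never past the fold threshold. For SAS against FaDu spheroids after RT, fits without the filter or with all groups called RFPL2 beside KLHL35 and SESN3. No count is read there, since it is fixed in part by the filter and by the choice. Fitted log2 fold changes stayed on their side of the threshold or within the replicate spread in 336 of 339 values. A change of sign in a gene that was not altered is counted there as no move. KLHL35 for HT in FaDu spheroids, for example, had -0.04 in the main fit and 0.19 without HT replicate 1. Described folds moved beyond the replicate spread in 31 of 140, mainly where a control library was left out of a bound. The 5 most like genes changed with rank correlation and within SAS libraries. Depth limits PNLDC1, RFPL2 and KLHL35 in unheated SAS spheroids, RFPL2 in FaDu spheroids and KLHL35 in heated SAS spheroids, where 1 library of each heated group held 4 reads.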
